A study of Mus musculus with 6 samples.

Results

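RNA levels of 35 genes of glutathione metabolism and of the NRF2 antioxidant response were compared between lungs of Zpbp2 KO and WT mice. The genes were chosen by symbol from a table of 41388 genes, and 35 of 35 were found and passed the filter on low counts. KO mice carried a Zpbp2 gene without its 5′ part, WT mice were C57BL/6J controls from the same colony, and the labels give C57BL/6J as the strain of both genotypes. Lungs of adult mice were taken at Zeitgeber time 7 (ZT7, counted in hours from lights on), with 3 libraries per genotype, each from 1 mouse (WT1 to WT3 and KO1 to KO3). The labels give neither age in weeks nor sex and name no treatment. The deletion was present in every cell of the animal, and RNA was taken from bulk lung.

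Zpbp2 itself had 20, 15 and 7 counts in WT1, WT2 and WT3, and 1, 0 and 0 counts in KO1, KO2 and KO3. Library totals ran from 59134950 to 71354388 counts. Summed levels of 10 alveolar type 2 cell markers, the surfactant genes among them, ran from 22189 to 33138 CPM (a gene's count per 1000000 counts of the library after scaling) in every library. Markers of squamous epithelium, which lines neither airways nor alveoli in healthy lung, summed to 4593 CPM in WT3 and to 8578 CPM in KO1, and the other libraries held 17.1 to 20.8 CPM. KO2 and KO3 differed by 1.71 to 3.37 times counting variance, depending on the count, while KO1 and KO2 differed by 3.74 to 162 times. KO2 and KO3 were therefore summed and counted as 1 sample, which gives n = 3 WT and n = 2 KO samples, and results with all 6 libraries kept separate stand beside them. The p-values of the 6-library fit are too small if KO2 and KO3 are in effect 1 sample.

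Glutathione is a small thiol peptide that cells use to reduce peroxides and to mark reactive compounds for export. NRF2, encoded by Nfe2l2, is a transcription factor that KEAP1 marks for degradation. When oxidants or electrophiles modify KEAP1, NRF2 accumulates and raises transcription of genes that make, use and recycle glutathione and thioredoxin, through antioxidant response elements. In the lung these systems meet inhaled oxidants: club cells of the airways are rich in glutathione S-transferases, and the fluid lining the airspaces contains glutathione.

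The promoters of these genes were searched for the core letters of the antioxidant response element, TGACNNNGC on either strand, in RefSeq windows from 250 bases before to 50 bases after each start (build GRCm38.p6). Of the 35 genes, 29 had a window, and 9 of these (31.0%) held the letters, against 3781 of 27025 genes (14.0%) with a window. The 9 were Gsta3, Nfe2l2, Srxn1, Gclm, Prdx1, Mgst1, Txnrd1, Sod1 and G6pdx. Sod3, Gsta4, Gsr, Gclc, Hmox1 and Prdx6 had no window and were not searched. A match describes the letters only. It names no site at which NRF2 was bound. The 6 stretches printed are those of the NRF2 gene itself, of classic NRF2 targets and of genes whose levels are described further on, and capitals mark the core. They lie at chr2:75704885-75704913 on the minus strand (Nfe2l2), and on the plus strand at chr3:122245413-122245441 (Gclm), chr2:152105542-152105570 (Srxn1), chr10:82859104-82859132 (Txnrd1), chr4:116685456-116685484 (Prdx1) and chr16:90220696-90220724 (Sod1). Each is read 5′ to 3′ on the gene's own strand. In all but Nfe2l2 the core lies on the opposite strand, so that its letters appear reversed and complemented, and in Prdx1 the stretch also holds the AP-1 letters TGAGTCA.
Nfe2l2: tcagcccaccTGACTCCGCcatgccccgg
Gclm: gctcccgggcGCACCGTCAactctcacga
Srxn1: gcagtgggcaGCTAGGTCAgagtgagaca
Txnrd1: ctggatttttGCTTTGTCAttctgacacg
Prdx1: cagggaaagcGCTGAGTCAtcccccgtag
Sod1: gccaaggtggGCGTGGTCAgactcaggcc

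Most of the 35 genes had small positive differences in KO, and the one that passed the test was thioredoxin, Txn1. The fitted log2 fold change (KO against WT) was above 0 for 29 genes (82.9%), against 52.2% of all genes tested, and below 0 for 6. Its median was 0.21, against 0.02 over all genes, and its range was -0.13 to 0.63. With a gene called where its adjusted p was 0.05 or less, 1 gene was higher and 0 genes were lower in KO, where 1.38% of all genes were called higher and 2.28% in either direction. Before adjustment, p was 0.05 or less for 15 of the genes, all higher, against 27.3% of all genes in either direction. With all 6 libraries kept separate 10 genes were called, all higher (Gclm, Gpx1, Gsr, Gss, Gstm2, Gstp1, Prdx1, Prdx2, Sod1 and Txn1), against 9.81% of all genes called higher and 18.9% called in either direction. All KO libraries lay above all WT libraries for 16 genes (45.7%), against 20.0% of all genes, and below them for 1 gene, Sod2, against 20.8%. In bulk lung, more cells of a type and more RNA per cell cannot be told apart, nor can fewer cells and less RNA per cell.

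**Figure D1:**
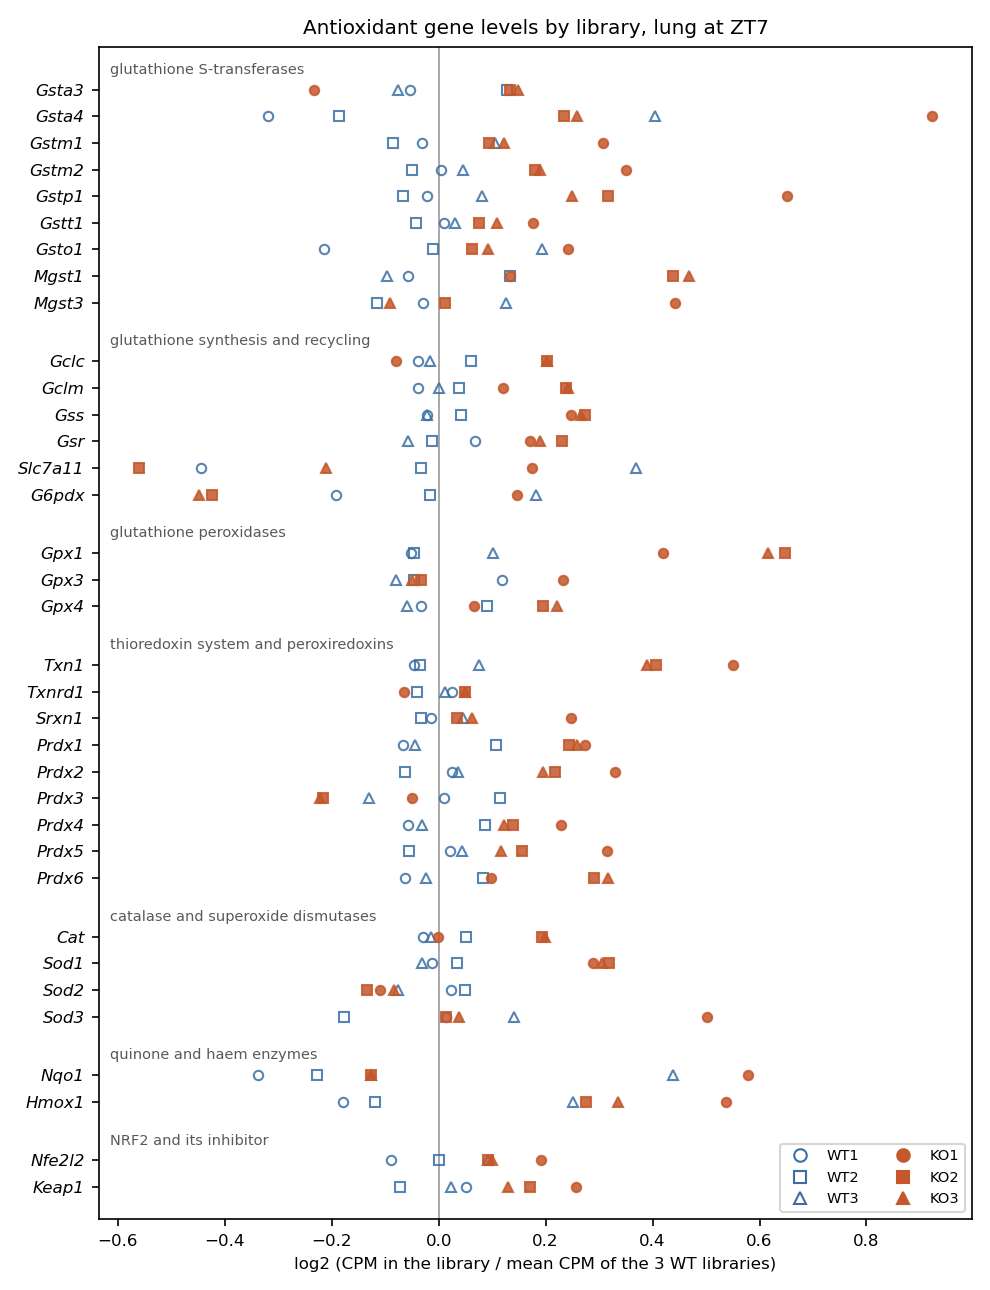
CPM of each of the 35 genes in each library, as log2 of the ratio to the WT mean, with open blue symbols for WT, filled orange symbols for KO, and circles, squares and triangles for replicates 1, 2 and 3. For 16 genes the filled symbols all lie to the right of the open ones, and for Sod2 they all lie to the left.

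Differences between the genotypes moved with the length of the genes over the whole table. Across 18515 tested genes with a length, log2 fold change and exon length had a Spearman rho of -0.33, and across the 35 genes of -0.44. Genes are not independent replicates. The median was 0.18 over the table for genes with up to 2000 exon bases and 0.27 over the 13 such members of the group, and longer genes had -0.01 over the table and 0.19 over the other 22. The 35 genes were shorter than the table, with a median of 2613 exon bases against 3786. With an offset for length and GC content the median over the 35 genes was 0.09, with 25 genes higher. In that fit 0 of the 35 were called, and 3 of all 18660 genes, of which 0 were higher. Before adjustment p was 0.05 or less for 8 of the 35, close to the 22.5% of all genes in that fit. With that offset and 6 separate libraries 5 were called: Gclm, Gss, Prdx1 and Sod1 higher and Prdx3 lower. In that fit 11.8% of all genes were called in either direction and 5.65% higher, so the share of the 35 called in either direction lay near the background. What set the relation to length was not tested.

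**Figure D2:**
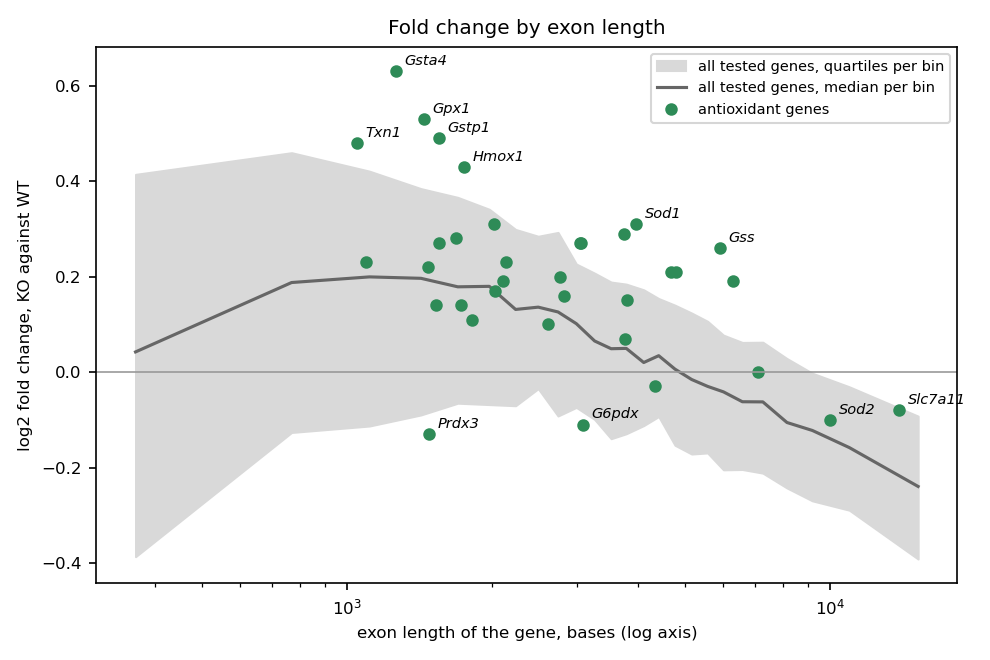
Log2 fold change (KO against WT) by exon length in bases on a log axis, with the 35 genes as green dots and the median and quartiles of all tested genes in 25 length bins as a grey line and band. Short genes lie higher than long ones in the table as a whole, with medians of 0.18 up to 2000 bases and -0.01 above it.

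Txn1 encodes cytosolic thioredoxin, a small protein that reduces disulfides and supplies electrons to peroxiredoxins (chromosome 4, 57943373 to 57956411, minus strand). Its level was 125, 126 and 136 CPM in WT1, WT2 and WT3 and 189, 171 and 169 CPM in KO1, KO2 and KO3. All KO libraries lay above all WT libraries. The means were 129 ± 5.84 (SD, n = 3) in WT and 179 ± 13.4 (SD, n = 2) in KO, which the fit put at 0.48 on the log2 scale (SE 0.07, adjusted p = 0.0474 by edgeR's quasi-likelihood test). With 6 separate libraries it was 0.45 (adjusted p = 0.00971). Txn1 is a short gene, with 1051 exon bases. With the length and GC offset its log2 fold change was 0.27 (adjusted p = 0.146), and without KO1 it was 0.40. Leaving out KO1 leaves 1 KO sample, so such values are given here and for other genes with no p. Over 17 alternatives the adjusted p ran from 9.33e-08 to 0.299.

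The other genes of the thioredoxin system include peroxiredoxins, which reduce hydrogen peroxide through a reactive cysteine. In this group of 9 genes, Txn1 among them, 7 had log2 fold changes above 0 and the median was 0.21 (0.08 with the offset). Prdx1, a cytosolic peroxiredoxin, was at 160.4, 181 and 163 CPM in WT and at 203, 199 and 201 CPM in KO, with no overlap between the genotypes. Its log2 fold change was 0.27 (SE 0.07, adjusted p = 0.0903, and with 6 libraries 0.26, adjusted p = 0.0293). Prdx2, its relative abundant in red cells, was at 119, 112 and 120.0 CPM in WT and 147, 136 and 134 CPM in KO, again without overlap, and had 0.27 (SE 0.06, adjusted p = 0.0754, and with 6 libraries 0.25, adjusted p = 0.0289). Prdx2 shares 177 of its 3050 exon bases with Rnaseh2a and 173 with Junb, both on the opposite strand. Junb was at 72.2, 47.7 and 83.3 CPM in WT and 139.6, 285 and 284 CPM in KO. Whether counting used the strand is not given in the sources used here, and the part of Junb and Rnaseh2a in the Prdx2 count was not tested. Prdx5 shares 409 of its 2139 exon bases with Trmt112, and G6pdx 418 of 3080 with Ikbkg, on opposite strands. Gclm shares 296 of 6291 with Gm17494 on the opposite strand and 244 with Gm6061 on its own strand. Summed erythroid markers, 10 genes of the 12 listed, were 2565 to 5750.1 CPM in WT, 4150.1 CPM in KO1, and 19572 and 20297 CPM in KO2 and KO3. Prdx2 was no higher in KO2 and KO3 than in KO1, and the part of red cells in its difference was not tested.

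Prdx4 of the endoplasmic reticulum, Prdx5 of mitochondria and peroxisomes, and Prdx6 also had all KO libraries above all WT libraries. None of them passed edgeR's quasi-likelihood test with KO2 and KO3 summed or separate. Another test, DESeq2, called Prdx5 (adjusted p = 0.0328) among 3908 of all 18660 genes. Prdx6 reduces oxidised phospholipids and takes part in surfactant turnover, and had one of the highest levels per length of these genes. It was at 933, 1032 and 958 CPM in WT and at 1042, 1191 and 1213 CPM in KO, with a fitted difference of 0.21 on the log2 scale (SE 0.09, adjusted p = 0.212, and with 6 libraries 0.24, adjusted p = 0.0701). Prdx4 and Prdx5 had log2 fold changes of 0.19 (adjusted p = 0.149) and 0.23 (adjusted p = 0.127). Both were 0.13 without KO1, and with the offset they were 0.05 and 0.02. Mitochondrial Prdx3 had the lowest log2 fold change of the 35 genes, -0.13 (SE 0.09, adjusted p = 0.428), with 63.0, 67.8 and 57.2 CPM in WT and 60.5, 53.9 and 53.7 CPM in KO, which overlapped. Without KO1 it was -0.22, and -0.30 with the offset.

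Thioredoxin reductase and sulfiredoxin are classic NRF2 targets that return thioredoxin and peroxiredoxins to use. Txnrd1, the cytosolic reductase, was at 115, 109.9 and 114 CPM in WT and at 108, 117 and 117 CPM in KO. Its log2 fold change was 0.00 (SE 0.06, adjusted p = 0.992, and with 6 libraries 0.01, adjusted p = 0.877), and the genotypes overlapped. Srxn1, which repairs overoxidised peroxiredoxins, was at 40.1, 39.6 and 41.8 CPM in WT and 48.1, 41.5 and 42.3 CPM in KO. The log2 fold change was 0.16 (SE 0.07, adjusted p = 0.240, and with 6 libraries 0.12, adjusted p = 0.262), and KO2 lay below WT3. Srxn1 was at 0.05 without KO1 and 0.01 with the offset.

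**Figure D3:**
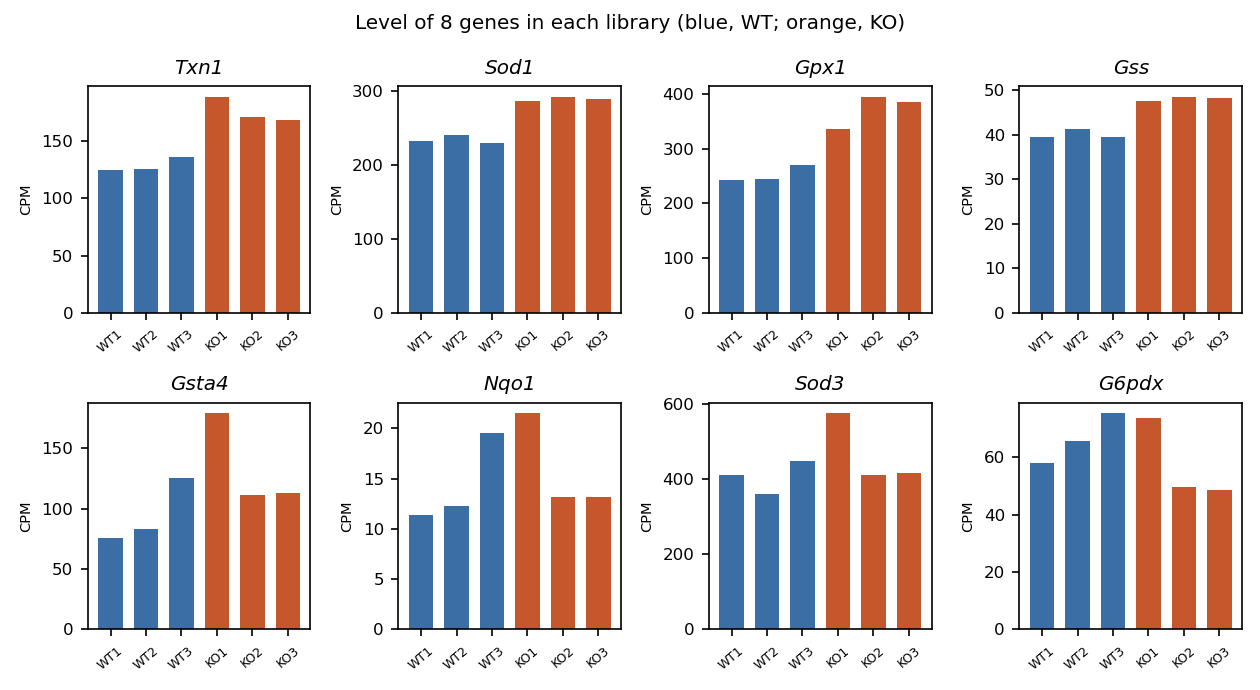
Bars of CPM in each of the 6 libraries for Txn1, Sod1, Gpx1, Gss, Gsta4, Nqo1, Sod3 and G6pdx, with axes that start at 0. KO bars of Txn1, Sod1, Gpx1 and Gss all stand above the WT bars, while for Nqo1, Sod3 and G6pdx WT3 and KO1 stand above the libraries of their own genotype.

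Glutathione is made from glutamate, cysteine and glycine, and its synthesis and recycling were represented by 6 genes, of which 4 had log2 fold changes above 0 (median 0.13, and 0.15 with the offset). Gss, glutathione synthetase, adds the glycine in the last step (chromosome 2, 155563181 to 155592810, minus strand). It was at 39.5, 41.3 and 39.5 CPM in WT and at 47.6, 48.5 and 48.2 CPM in KO, a gap wider than the range within either genotype. Its log2 fold change was 0.26 (SE 0.05, adjusted p = 0.0537, and with 6 libraries 0.26, adjusted p = 0.0103), and with the offset it was 0.29 (adjusted p = 0.0865). Gss shares 395 exon bases with Acss2, 385 with Gssos2 and 322 with Gssos1, all on the opposite strand. Gsr, the reductase that regenerates glutathione from its oxidised form, was at 57.2, 54.1 and 52.5 CPM in WT and 61.5, 64.1 and 62.3 CPM in KO, with no overlap and a difference of 0.20 on the log2 scale (SE 0.06, adjusted p = 0.111, and with 6 libraries adjusted p = 0.0313). With the offset Gsr was at 0.10 (adjusted p = 0.371), and with the offset and 6 libraries it was not called (0.11, adjusted p = 0.185).

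Glutamate-cysteine ligase carries out the rate-limiting step, and its modifier and catalytic subunits are both classic NRF2 targets. The modifier Gclm was at 43.8, 46.2 and 45.0 CPM in WT and at 48.9, 53.1 and 53.2 CPM in KO. The genotypes did not overlap, and the log2 fold change was 0.19 (SE 0.06, adjusted p = 0.125, and with 6 libraries 0.20, adjusted p = 0.0354). The catalytic subunit Gclc was at 181, 194 and 184 CPM in WT and at 176, 214 and 214 CPM in KO. KO1 lay below every WT library and KO2 and KO3 above them, so the log2 fold change of 0.07 (SE 0.10, adjusted p = 0.704, and with 6 libraries adjusted p = 0.409) averages opposite deviations, and it was 0.20 without KO1. Slc7a11, the cystine importer, had the lowest level per length of the 35 genes, 0.190 CPM per kb in WT. It was at 1.94, 2.58 and 3.41 CPM in WT and 2.98, 1.79 and 2.28 CPM in KO (log2 fold change -0.08, SE 0.30, adjusted p = 0.898, and with 6 libraries -0.17, adjusted p = 0.705). G6pdx, which makes NADPH for the reductases, was at 58.1, 65.7 and 75.3 CPM in WT and 73.5, 49.5 and 48.7 CPM in KO (log2 fold change -0.11, SE 0.20, adjusted p = 0.761). Both overlapped between genotypes. WT3 was the highest library for each, followed by KO1, and without KO1 the values were -0.39 for Slc7a11 and -0.44 for G6pdx. With the offset they were 0.20 and -0.21.

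Glutathione S-transferases join glutathione to reactive compounds, and 8 of these 9 genes had log2 fold changes above 0, with a median of 0.23. With the offset the median was 0.00, and 4 of 9 were above 0. Gstp1, the pi class enzyme of airway epithelium, was at 39.6, 38.4 and 42.5 CPM in WT and at 63.1, 50.1 and 47.8 CPM in KO, with no overlap. Its log2 fold change was 0.49 (SE 0.12, adjusted p = 0.0806, and with 6 libraries 0.42, adjusted p = 0.0471, and with the offset 0.23, adjusted p = 0.252). Without KO1 it was 0.28. Its near copy Gstp2 was at 1.72 to 3.16 CPM in WT and 1.85 to 5.69 CPM in KO, so reads between them could be split. Gstm2, of the mu class, was at 88.9, 85.6 and 91.4 CPM in WT and at 113, 100.4 and 101 CPM in KO, also without overlap (log2 fold change 0.28, SE 0.07, adjusted p = 0.0817, and with 6 libraries 0.25, adjusted p = 0.0401, with the offset 0.08, adjusted p = 0.463, and without KO1 0.18).

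Gsta4, which conjugates the lipid peroxidation product 4-hydroxynonenal, had the highest log2 fold change of the 35 genes and one of the widest spreads. It was at 75.7, 83.0 and 125 CPM in WT and at 179, 111 and 113 CPM in KO. KO1 was the highest library, but WT3 lay above KO2 and KO3, so the genotypes overlapped. The log2 fold change was 0.63 (SE 0.29, adjusted p = 0.244, and with 6 libraries 0.51, adjusted p = 0.220). It was 0.24 without KO1, 0.49 without both WT3 and KO1, the libraries with squamous markers, and 0.42 with the offset (adjusted p = 0.479). Gstm1 had the highest level per length among the transferases, 294 CPM per kb in WT. It was at 424, 408 and 466 CPM in WT and 536, 462 and 471 CPM in KO, with KO2 just below WT3 (log2 fold change 0.22, SE 0.09, adjusted p = 0.212, and with 6 libraries 0.18, adjusted p = 0.168, with the offset -0.02, and without KO1 0.11).

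The remaining transferases did not pass the test. Gstt1 had no overlap between genotypes, with 80.7 to 84.9 CPM in WT and 87.6 to 93.9 CPM in KO, and a log2 fold change of 0.14 (adjusted p = 0.167) that was -0.10 with the offset. The membrane-bound enzyme Mgst1 had 0.31 (adjusted p = 0.191), which was 0.45 without KO1 and 0.18 with the offset. Gsto1, Mgst3 and Gsta3 had 0.17 (adjusted p = 0.473), 0.23 (adjusted p = 0.406) and -0.03 (adjusted p = 0.907), with overlapping genotypes. Without KO1 they were 0.08, -0.04 and 0.14, and with the offset 0.00, 0.00 and -0.01.

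Glutathione peroxidases spend glutathione to reduce peroxides. Gpx1, the ubiquitous cytosolic enzyme, had one of the widest separations of the 35 genes (chromosome 9, 108338903 to 108340343, plus strand). It was at 243, 244 and 270.3 CPM in WT and at 337, 395 and 386 CPM in KO, with every KO library well above every WT library. The log2 fold change was 0.53 (SE 0.09, adjusted p = 0.0537, and with 6 libraries 0.56, adjusted p = 0.00974). Gpx1 is short, with 1441 exon bases, and the offset left 0.27 (adjusted p = 0.204). Red cells are rich in Gpx1, and KO2 and KO3, where erythroid markers were highest, had the highest values. Gpx1 was at 337 CPM in KO1 and 270.3 CPM in WT3, where the erythroid sums were 4150.1 and 5750.1 CPM. The part of red cells in the difference was not tested. Gpx3, which is secreted, had the highest level per length of all 35 genes, 707 CPM per kb in WT. It was at 1392, 1242 and 1213 CPM in WT and 1507, 1253 and 1238 CPM in KO, which overlapped (log2 fold change 0.11, SE 0.11, adjusted p = 0.589, and with 6 libraries 0.06, adjusted p = 0.723). Gpx4, which protects membrane lipids, had 0.14 (adjusted p = 0.283) and also overlapped. Without KO1 Gpx3 was at -0.04 and Gpx4 at 0.20, and with the offset they were -0.11 and -0.12.

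Superoxide dismutases turn superoxide into hydrogen peroxide, which catalase and the peroxidases remove. Sod1, the cytosolic copper and zinc enzyme, separated the genotypes with little spread (chromosome 16, 90220754 to 90226329, plus strand). It was at 232, 239.7 and 229 CPM in WT and at 286, 292 and 289 CPM in KO. The means were 234 ± 5.33 (SD, n = 3) and 288 ± 3.51 (SD, n = 2), and the fitted difference was 0.31 on the log2 scale (SE 0.05) with an adjusted p of 0.0512, just above the threshold of 0.05. With 6 libraries it was 0.31 (adjusted p = 0.00881), and with the offset 0.29 (adjusted p = 0.0833). Its adjusted p ran from 3.03e-10 to 0.779 over the alternatives. The mitochondrial manganese enzyme Sod2 was the one gene of the 35 that was lower in each KO library than in any WT library, at 99.2, 101 and 92.6 CPM in WT and 90.4, 89.0 and 92.1 CPM in KO (log2 fold change -0.10, SE 0.06, adjusted p = 0.300, and with 6 libraries adjusted p = 0.157, and with the offset 0.06). Extracellular Sod3 had 0.29 (adjusted p = 0.337) and Cat, catalase of peroxisomes, 0.10 (adjusted p = 0.460), and both overlapped. Without KO1 that of Sod3 was 0.02, and 0.10 without both WT3 and KO1, and that of Cat was 0.19 without KO1 and -0.01 with the offset.

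**Figure D4:**
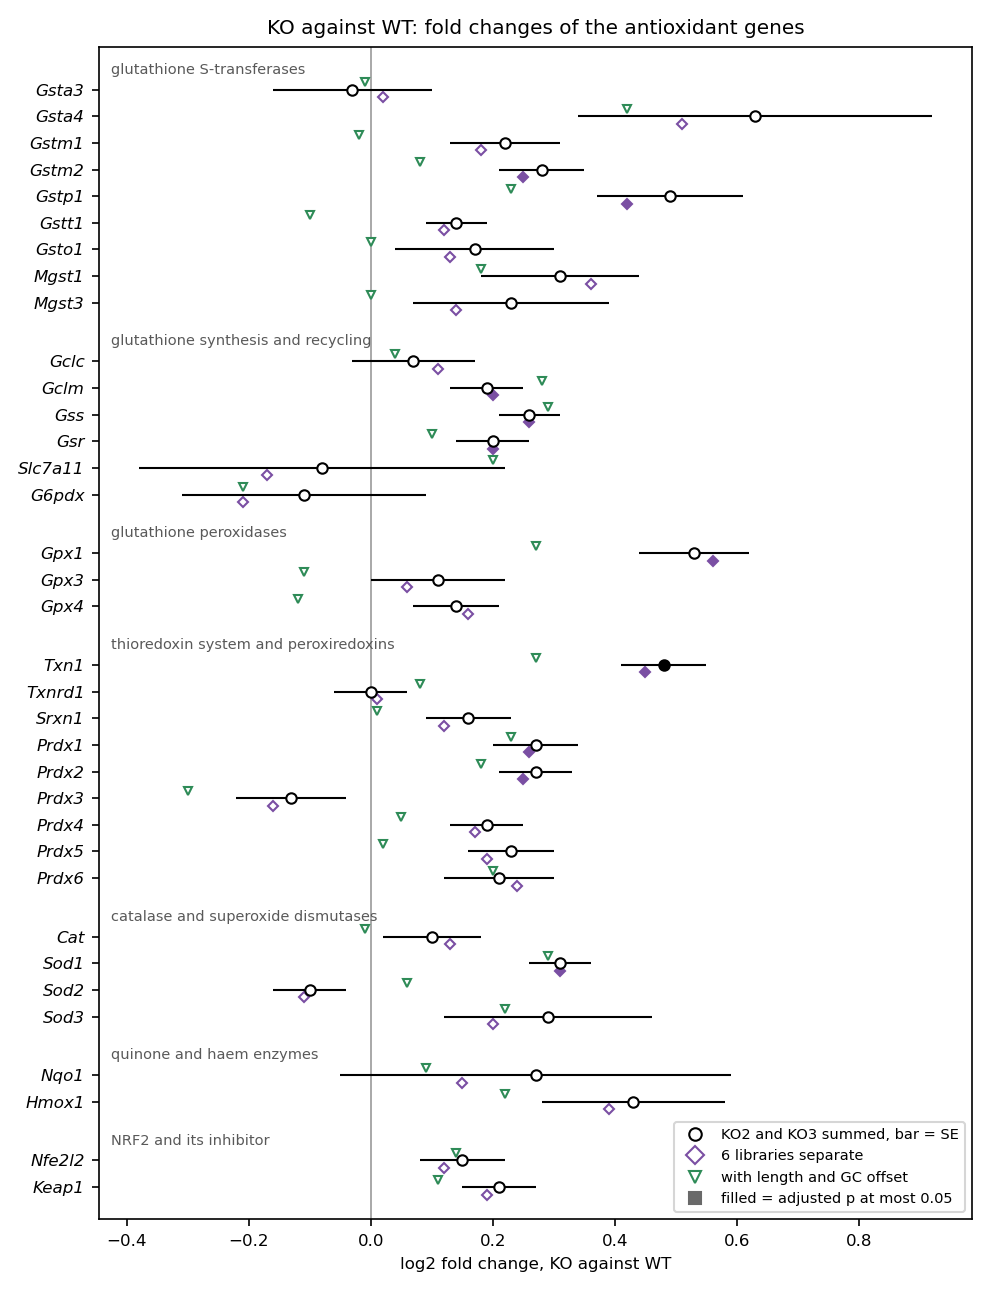
Log2 fold change (KO against WT) of the 35 genes by role, with black circles and bars for the fit with KO2 and KO3 summed and its SE, purple diamonds for 6 separate libraries and green triangles for the length and GC offset, filled where the adjusted p is at most 0.05. Txn1 is the only filled circle, 10 diamonds are filled and 0 triangles are.

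Nqo1 and Hmox1 are commonly used readouts of NRF2 activity, and neither passed edgeR's quasi-likelihood test with KO2 and KO3 summed or separate. DESeq2, which called 3908 of all 18660 genes, called Hmox1, and also Keap1, but not Nqo1. Nqo1, a quinone reductase, was at 11.4, 12.3 and 19.5 CPM in WT and at 21.5, 13.2 and 13.2 CPM in KO. WT3 and KO1 were high and the other 4 libraries lay close together, so the genotypes overlapped and the log2 fold change of 0.27 had an SE of 0.32 (adjusted p = 0.634, and with 6 libraries 0.15, adjusted p = 0.748). The direction of Nqo1 turned without KO1, to -0.13, and it was 0.15 without both WT3 and KO1 and 0.09 with the offset. Hmox1, haem oxygenase, was at 31.1, 32.4 and 41.9 CPM in WT and at 51.1, 42.6 and 44.4 CPM in KO. The genotypes did not overlap, though KO2 exceeded WT3 by little, and the log2 fold change was 0.43 (SE 0.15, adjusted p = 0.155, and with 6 libraries 0.39, adjusted p = 0.0863). That of Hmox1 was 0.30 without KO1, 0.45 without both WT3 and KO1, and 0.22 with the offset (adjusted p = 0.437).

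The genes of NRF2 and of its inhibitor had small differences. Nfe2l2 was at 172, 183 and 195 CPM in WT and at 209, 195 and 196 CPM in KO, and WT3 reached the level of KO2. Its log2 fold change was 0.15 (SE 0.07, adjusted p = 0.265, and with 6 libraries 0.12, adjusted p = 0.208), and 0.09 without KO1. Keap1 was at 77.7, 71.3 and 76.2 CPM in WT and at 89.6, 84.4 and 82.1 CPM in KO, with no overlap (log2 fold change 0.21, SE 0.06, adjusted p = 0.118, and with 6 libraries 0.19, adjusted p = 0.0604, and with the offset 0.11). Keap1 shares 510 of its 4693 exon bases with an antisense gene, Gm16754. RNA levels of this pair do not measure NRF2 activity, which is set mainly by protein stability.

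Several of the 35 genes differed as much within a genotype as between them. WT3 and KO1 deviated together: across the 35 genes, the log2 deviation of WT3 from the mean of WT1 and WT2 and that of KO1 from the mean of KO2 and KO3 had a Pearson r of 0.76 (Spearman rho 0.68), and 27 had the same sign. Over all genes the deviations of WT3 and KO1 from their own genotype's mean had a correlation of 0.736. These are descriptions across genes measured in the same libraries. The members that stood highest in both were Nqo1 (0.72 in WT3 and 0.70 in KO1), Gsta4 (0.65 and 0.68) and Slc7a11 (0.61 and 0.56). They were followed by G6pdx (0.29 and 0.58), Hmox1 (0.40 and 0.23), Sod3 (0.22 and 0.47) and Mgst3 (0.20 and 0.48). Gsta3 (-0.12 and -0.38) and Mgst1 (-0.13 and -0.32) stood lower in both. The squamous markers were high in the same 2 libraries, and their part in these deviations was not tested. Without WT3 and KO1 the median log2 fold change of the 35 genes was 0.18, with 1 KO sample left.

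**Figure D5:**
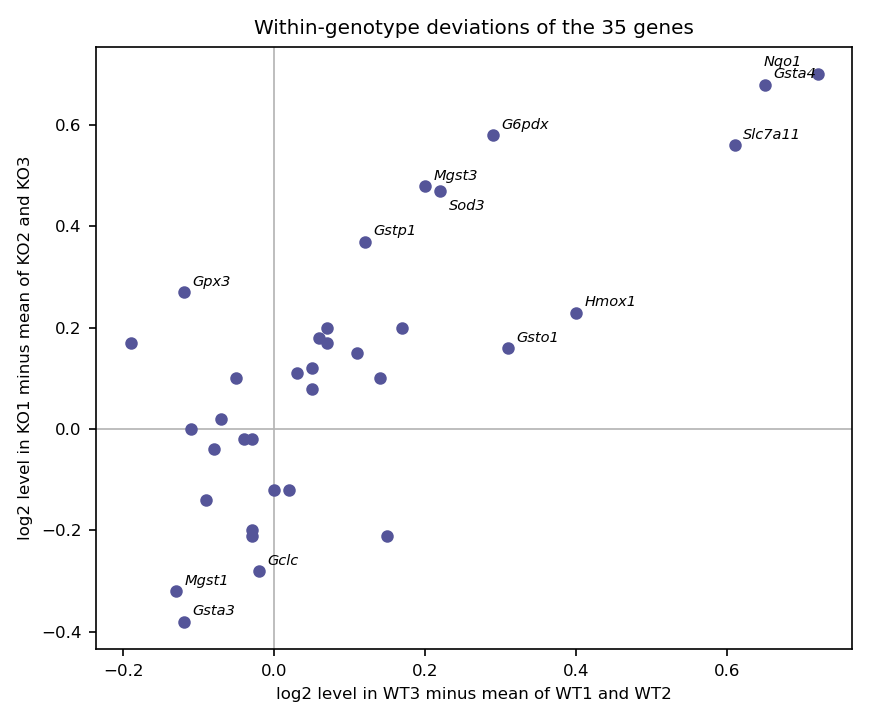
For each of the 35 genes, the log2 difference of WT3 from the mean of WT1 and WT2 (x axis) against that of KO1 from the mean of KO2 and KO3 (y axis). Nqo1, Gsta4 and Slc7a11 lie far to the upper right, and 27 of 35 genes have the same sign on both axes.

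Further markers moved with genotype. Summed club cell markers, Scgb1a1 among them, were 32528 to 38091 CPM in WT, 42331 CPM in KO1, and 56534 and 56479 CPM in KO2 and KO3. Scgb1a1 made up most of that sum (23323 to 27464 CPM in WT and 32026 to 42778 CPM in KO), and not every club cell marker moved that way. Bpifa1 was at 830.4 to 1196 CPM in WT and 208 to 572 CPM in KO, Reg3g at 74.5 to 97.1 and 19.9 to 60.7 CPM, and Scgb3a1 at 209.9 to 248 CPM in WT, 147 CPM in KO1, and 257 and 255 CPM in KO2 and KO3. Alveolar type 2 markers were 22189 to 23175 CPM in WT and 31467 to 33138 CPM in KO. Both cell types express many of the genes described here, and the part of cell composition in the differences was not tested. Adipocyte markers were lower in KO, at 533 to 607 CPM against 1447 to 2193 CPM in WT. Cardiomyocyte markers were also lower in each KO library, at 1437 to 2061 CPM against 3225 to 7840.2 CPM, and hepatocyte markers were low but higher in KO, at 90.1 to 149.5 CPM against 79.1 to 83.1 CPM. Summed neutrophil markers were at 135 to 142 CPM in KO and 157 to 243 CPM in WT, but not every one of them separated. Ltf was at 77.0 to 127 CPM in WT and 30.6 to 57.8 CPM in KO. Ngp, Camp and Ly6g, all at low levels, were also lower in each KO library. S100a8, S100a9, Csf3r, Retnlg, Mmp8 and Elane overlapped, with S100a9 at 26.0 to 43.5 CPM in WT and 34.1 to 49.8 CPM in KO. The sums for ciliated cells and alveolar macrophages overlapped.

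Other genes of the pathway were taken from fixed lists. Of 117 listed genes 116 were tested, 80 with log2 fold changes above 0 and 36 below, with a median of 0.12 (0.08 with the offset). Of these 3 were called, all higher, against 2.28% of all genes called, so the share was near the background. Gstt3, a theta class transferase, was at 36.0, 35.4 and 34.9 CPM in WT and 47.0, 49.1 and 50.6 CPM in KO (log2 fold change 0.46, SE 0.05, adjusted p = 0.0446, and with the offset 0.39, adjusted p = 0.0825). Glrx5, a mitochondrial glutaredoxin of iron-sulfur cluster assembly, was at 25.2, 24.8 and 26.4 CPM in WT and 36.0, 39.6 and 39.5 CPM in KO (0.57, SE 0.07, adjusted p = 0.0446, and with the offset 0.49, adjusted p = 0.0825). Ccs, the chaperone that delivers copper to Sod1, was at 29.6 CPM in all WT libraries and 36.3, 37.4 and 38.9 CPM in KO (0.34, SE 0.05, adjusted p = 0.0487, and with the offset 0.10, adjusted p = 0.389). With 6 separate libraries 114 of the listed genes were tested, of which 20 were called higher and 6 lower, where 9.81% of all genes were called higher and 18.9% in either direction. With the offset and 6 libraries 7 of the listed genes were called in either direction, where 11.8% of all genes were.

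By list, the counts with 6 libraries, to be read against the same 9.81% and 18.9%, were 2 higher of 17 other glutathione S-transferases, 4 higher of 26 other glutathione metabolism genes, 7 higher and 1 lower of 34 other NRF2 targets, and 4 higher of 16 other thioredoxin and superoxide genes. Some genes stand on more than 1 list. The 16 genes that regulate NRF2 had a median log2 fold change of 0.04, with 2 called higher and 2 lower with 6 libraries. The higher pair was Maff, a small Maf protein of the family that pairs with NRF2 on DNA (0.61, SE 0.10, adjusted p = 0.0523, and with 6 libraries adjusted p = 0.00994), and Rbx1, a subunit of the ubiquitin ligase that KEAP1 brings to NRF2 (0.30, SE 0.05, adjusted p = 0.0559, and with 6 libraries adjusted p = 0.0155). The lower pair was Bach1, whose protein competes with NRF2 for its elements, at 69.2, 72.3 and 72.8 CPM in WT and 55.9, 62.7 and 63.5 CPM in KO (-0.26, SE 0.07, adjusted p = 0.0984, and with 6 libraries adjusted p = 0.0395), and its relative Bach2 (-0.50, adjusted p = 0.0506, and with 6 libraries adjusted p = 0.00852). Of the oxidant producing enzymes 15 were tested with 6 libraries, of which 1 was called higher and 3 lower. With KO2 and KO3 summed 17 were tested and the median was -0.04.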

How the data were processed

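Lung RNA from 3 WT and 3 KO mice had been sequenced. The authors trimmed reads with Trimmomatic (0.36), aligned them to mm10 with STAR (2.5.3a) and counted them per gene with HTSeq (0.6.0); Picard (2.9.0) is also named in the submitters' processing notes. The deposited table holds raw counts, with no normalization. Annotation was GENCODE M21 on GRCm38, which held 40254 (97.3%) of the 41388 genes.

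All genes were tested with edgeR (4.0.16, R 4.3.3): filterByExpr, TMM scaling, glmQLFit and glmQLFTest, with Benjamini-Hochberg adjustment over all 18660 genes tested and a threshold of 0.05. KO2 and KO3 counts were summed, and their mean CPM entered means and SDs as 1 sample. P-values set the difference between genotypes against the spread between these samples, moderated across genes. The genes named were all 35 by role, with library values for those called in either fit, Nfe2l2, Keap1 and classic NRF2 targets, and the 3 with the highest level per length and the 3 with the largest log2 fold change; of other pathway genes, those called. Library values of Prdx3, Sod2 and G6pdx were added, and Bach1, Bach2, Maff and Rbx1, and single club cell, neutrophil and hepatocyte markers were named, after their values were seen. The members, gene lists and tests were chosen with earlier results of these data known. Alternatives were a 6-library fit, a replicate block, other scalings, DESeq2 (1.42.0), the edgeR exact test, other filters, a length and GC offset, and libraries left out. The code of the fits was run on simulated counts with larger fold changes than any of the 35 genes had. These held no relation to length and no shared deviation of WT3 and KO1, so they do not test the fits for these data. The ZT10 experiment was not analysed here.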

Additional observations from a re-analysis of the deposited data

How the results depend on the processing

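The median log2 fold change of the 35 genes stayed above 0 under all 19 alternatives (17 planned, 2 added after seeing the data, both of them scalings with 6 separate libraries). It was 0.09 with the length and GC offset, with KO2 and KO3 summed or separate, and 0.13 to 0.24 otherwise. Counts of calls depended on the setting more than the direction did, and the causes were not tested. Against 1 of the 35 genes, 426 of all genes and 3 other pathway genes in the report, the counts in that order were 10, 3402 and 26 with 6 separate libraries, 13, 3908 and 28 by DESeq2, and 4, 937 and 11 with at least 10 counts in every library. They were 6, 2256 and 21 without WT3 and KO1, a fit of 1 KO sample whose spread comes from WT1 and WT2 alone, 5, 2127 and 7 with the offset and 6 libraries, and 6, 3541 and 26 with library size only and 6 libraries. Lower counts came from the edgeR exact test (0, 209 and 0; 3 of the 35 and 8.59% of all genes at p of 0.05 or less before adjustment), the offset (0, 3 and 0; 8 and 22.5%), and KO1 alone against WT (0, 0 and 0; 18 and 26.5%). Library size only called 0 of the 35 (10 before adjustment, against 27.4% of all genes) and moved the median of all genes from 0.02 to -0.04; 117 of its 306 calls over all genes were higher in KO, against 257 of 426. Leaving out 1 library at a time gave 0 to 1 of the 35, 0 to 418 of all genes and 0 to 3 other pathway genes. Without WT1, WT2 or WT3 0 genes of the whole table were called, and without KO1 or with KO1 alone 1 KO sample is left, assumed to vary like WT, so a lost call there says little about a gene. With 1 library left out Txn1 was called only where that was KO3, and its log2 fold change was 0.46, 0.46, 0.52, 0.40 and 0.48 without WT1, WT2, WT3, KO1 and KO2. In the same order 10, 11, 12, 15 and 15 of the 35 had a p of 0.05 or less before adjustment, against 19.8%, 18.1%, 22.9%, 23.5% and 27.4% of all genes.

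Replicate numbers do not pair the libraries: deviations of same-numbered libraries correlated at -0.48, 0.564 and -0.653. With the replicate block, 4 of the 35, 1157 of all genes and 14 other pathway genes were called, and log2 fold changes of Gsta3 and Txnrd1 turned to 0.02 and 0.01.

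Of 665 values of single genes, 43 in 16 genes changed sign, and 0 of these were called. With 6 libraries Gsta3 was 0.02 and Txnrd1 0.01. Without WT3 and KO1 Gsta3 was 0.10, Gpx3 -0.08 and Txnrd1 0.06. With KO1 alone Gclc was -0.09, Slc7a11 0.17, G6pdx 0.15 and Cat 0.00. With the offset Gstm1 was -0.02, Gstt1 -0.10, Gsto1 0.00, Mgst3 0.00, Slc7a11 0.20, Gpx3 -0.11, Gpx4 -0.12, Txnrd1 0.08, Cat -0.01 and Sod2 0.06. With the offset and 6 libraries Gsta3 was 0.05, Gstm1 -0.04, Gstt1 -0.10, Gsto1 -0.02, Mgst3 -0.09, Slc7a11 0.09, Gpx3 -0.15, Gpx4 -0.09, Txnrd1 0.09, Srxn1 -0.02, Prdx5 0.00, Sod2 0.04 and Nqo1 -0.02. Leaving out 1 library gave -0.07 to 0.14 for Gsta3, -0.04 to 0.30 for Mgst3, -0.39 to 0.15 for Slc7a11, -0.04 to 0.17 for Gpx3, -0.03 to 0.05 for Txnrd1 and -0.13 to 0.55 for Nqo1. Slc7a11 had 111 to 205 counts a library, the fewest of the 35 genes.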
